A study of Glycine soja with 14 samples.

Results

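Gene expression after 24 h of bicarbonate treatment was set against that after 12 h in young leaves of Glycine soja, line G07256. This species is the wild ancestor of the soybean crop. The 24 h group held 2 arrays from seedlings kept for 24 h in nutrient solution with 50 mM NaHCO3 at pH 8.5, which is alkaline and adds sodium. The 12 h group held 2 arrays from seedlings kept in the same solution for 12 h. The 4 arrays were chosen by their labels from the 14 of the series, which also covers untreated leaves (0 h) and 0.5, 1, 3 and 6 h of treatment. Each array carried total RNA from the young leaves of 3 pooled plants, 21 days old when moved into bicarbonate, and the 2 arrays of a time are independent biological replicates, per the labels. The growth room alternated 12 h light with 12 h dark, so the 2 times lie at opposite points of the daily cycle. The sources used here do not say at what clock hour leaves were taken. If the untreated leaves were taken as treatment began, they share the clock hour of the 24 h leaves and not of the 12 h leaves. No untreated array of either time was analysed here, so hours in bicarbonate and time of day cannot be told apart in any result below.

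Leaves keep time with a circadian clock in which genes of the morning and of the evening repress each other. LHY and its relatives encode MYB-type factors that peak around dawn, and LUX ARRHYTHMO is part of the evening complex that peaks around dusk. In many plants the clock and the light-dark cycle pace much of a leaf's transcription, including genes of chlorophyll synthesis, carbon fixation, sugar export and membrane desaturation. Salt and alkalinity act on a leaf through water status, ion balance and abscisic acid, the stress hormone.

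Levels are intensities scaled so that every array had the same median over soybean probe sets, and a change is the difference, 24 h minus 12 h, of log2(level + 16), given with its SE. The added constant understates the change of dim genes. A probe set was called where limma's adjusted p was under 0.05 over all 37593 soybean probe sets. A gene counts as above background on an array where its level exceeds the 95th percentile of the probe sets for 2 other organisms, Phytophthora sojae and Heterodera glycines, on that array. That background was 20.49 and 20.03 on the 24 h arrays and 14.82 and 18.28 on the 12 h arrays. A probe set of the spike-in bioB, before scaling, was 569 and 789 on the 24 h arrays and 280 and 474 on the 12 h arrays. The part of these array differences in the changes of dim genes was not tested. Replicates correlated at 0.985 at 24 h and 0.972 at 12 h across soybean probe sets. Genes of chlorophyll synthesis, the thylakoid and Rubisco activase, markers of leaf, were above background in 13 of 13 cases on each of the 4 arrays. In whole leaves, fewer cells of a type and less RNA per cell cannot be told apart.

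Between 12 h and 24 h, 6363 of 37593 probe sets differed (16.9%), 3359 higher at 24 h (8.94%) and 3004 lower (7.99%). Large changes were more often rises: 1622 rises and 906 falls reached 2-fold, and 415 rises and 157 falls reached 4-fold. Both 24 h arrays lay above both 12 h arrays for 10745 probe sets (28.6%) and below them for 11244 (29.9%), so such separation alone is common. The 6029 genes with a symbol held 713 rises (11.8%) and 585 falls (9.7%). The 1003 among them with a name rather than a number held 155 rises (15.5%) and 85 falls (8.47%). Counts in the gene lists below are to be read beside the latter shares. A fit without 1 of the 4 arrays leaves 1 array at that time. Its median SE was 0.21 to 0.22, against 0.18 with all arrays, so a call can end there although the change hardly moves. Leaving out 12 h replicate 1 lowered the number called to 3770, leaving out 24 h replicate 1 to 3261, and leaving out 24 h replicate 2 to 3352.

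**Figure D1:**
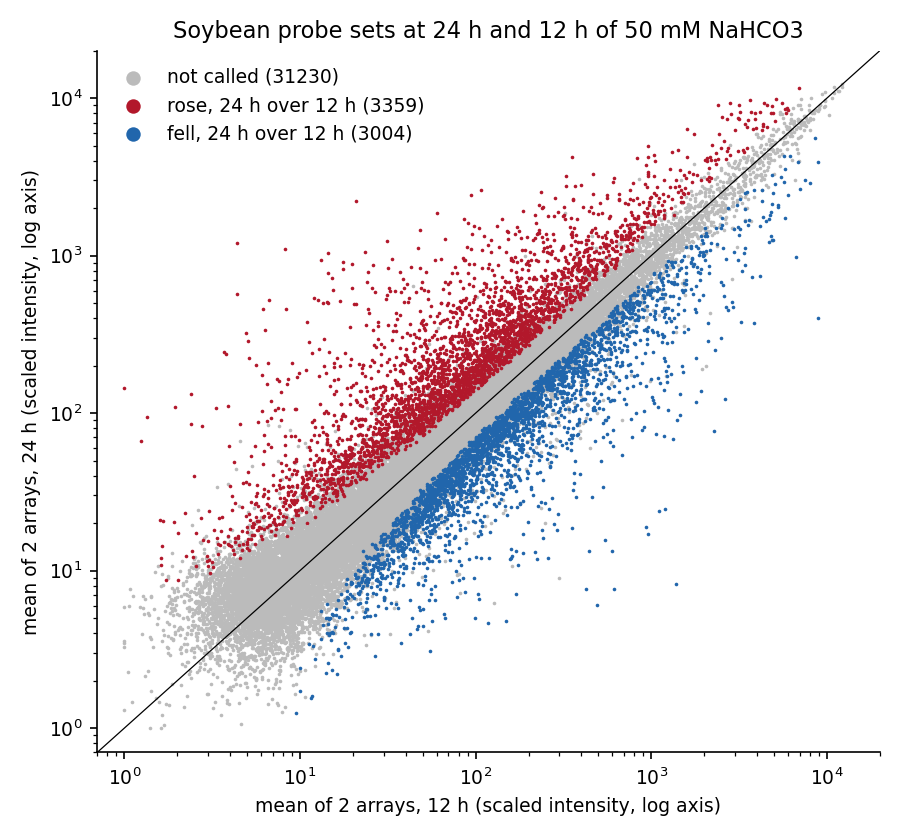
Mean scaled intensity of 2 arrays at 24 h (vertical, log axis) against 12 h (horizontal, log axis) for 37593 soybean probe sets. The diagonal marks equal levels; 3359 probe sets rose (red) and 3004 fell (blue).

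Most genes that changed stood at an extreme of the whole course at 12 h. Of the 713 genes that rose, 526 (73.8%) had their lowest mean of the 7 times at 12 h, and 274 (38.4%) had their highest at 24 h. Of the 585 that fell, 419 (71.6%) were highest at 12 h and 249 (42.6%) lowest at 24 h. Over all 6029 genes these shares were 21.7% lowest and 21.9% highest at 12 h, and 13.4% highest and 15% lowest at 24 h. The calls use the same 12 h and 24 h arrays, so these shares describe the genes called and are no test.

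Of 4 clock genes, 2 rose and 1 fell. LHY stood at 2528 and 2689 at 24 h, against 61.0 and 152 at 12 h, a rise of 4.53 ± 0.28 (adjusted p = 5.32e-06). Its relative LCL3 stood at 327 and 239 at 24 h, against 13.4 and 9.18 at 12 h, where it was not above background on either array. It was at least 17.0-fold higher at 24 h (adjusted p = 4.18e-06). For both genes the groups lay far apart, and the second probe set of LHY rose by 4.68.

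LUXC, a LUX ARRHYTHMO-like gene, went the other way. It stood at 47.3 and 34.6 at 24 h, against 438 and 349 at 12 h, a fall of 2.85 ± 0.19 (adjusted p = 8.52e-06). Its second probe set fell by 0.68 (adjusted p = 0.0286). ZTL1, which encodes a light-sensing F-box protein that targets clock proteins for breakdown, stood at 147 and 147 at 24 h, within the 164 and 120 of 12 h, and its change of 0.06 ± 0.16 was not called. A second probe set of ZTL1 rose by 0.49 (adjusted p = 0.0319), so its probe sets disagree. In untreated leaves LHY averaged 1793, LCL3 119 and LUXC 59.0. At 24 h LHY (2609) and LCL3 (283) averaged more than in untreated leaves and LUXC (41.0) less, while at 12 h the means were 107, 11.3 and 393.

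Among genes of light signalling and flowering, 3 of 6 rose and 0 fell, with a median change of 0.44. COL10, a CONSTANS-like zinc finger gene, stood at 2145 and 2057 at 24 h, against 230 and 231 at 12 h, a rise of 3.10 ± 0.21 (adjusted p = 8.61e-06), although its other probe set was not called. COL2A, of the same family, stood at 2100 and 2229 at 24 h, against 464 and 555 at 12 h, and rose by 2.06 ± 0.19. COL10 was low at 12 h alone: its mean was 1448 to 2426 at the other treated times up to 6 h. COL2A averaged 520 at 6 h, near its 12 h mean of 510. The phytochrome photoreceptor gene PHYA rose by 0.61 ± 0.13, a call that ended without 12 h replicate 1 or either 24 h array (adjusted p up to 0.0636).

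The MYB factors held the 3 steepest rises among genes with a name. Of 65 MYB genes, 22 rose and 4 fell, with a median change of 0.15. MYB134 stood at 2306 and 2155 at 24 h, against 19.7 and 21.9 at 12 h, a rise of 5.93 ± 0.13 (adjusted p = 2.24e-08). MYB114 stood at 989 and 822 at 24 h, against 8.45 and 26.8 at 12 h, and rose by 4.83 ± 0.25. MYB186 stood at 1439 and 1450 at 24 h, against 28.1 and 68.2 at 12 h, and rose by 4.58 ± 0.24. MYB118 stood at 962 and 778 at 24 h, against 13.9 and 38.0 at 12 h, and rose by 4.46 ± 0.25. In these 4 genes the lowest 24 h array was far above the highest 12 h array.

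At 6 h MYB118 averaged 23.5, near its own 12 h mean of 25.9. MYB134, MYB186 and MYB114 averaged 233, 293 and 98.9 at 6 h, each above its own 12 h mean of 20.8, 48.2 and 17.6. At 24 h MYB186 (1445), MYB114 (906) and MYB118 (870) had their highest means of the 7 times, and MYB134 (2230) was close to its 0.5 h mean of 2236. Smaller rises included MYB138 (2.61 ± 0.42) and MYB149 (1.89 ± 0.35). The 4 MYB genes that fell were MYB177, MYB127, MYB11 and MYB93, the last by 0.66. MYB177 stood at 122 and 87.6 at 24 h, against 361 and 564 at 12 h, a fall of 1.97 ± 0.26, and its second probe set fell by 2.08. The calls of MYB127 (-1.51 ± 0.29) and MYB11 (-1.06 ± 0.29) ended without 12 h replicate 1 or 24 h replicate 1, and that of MYB11 also without 24 h replicate 2 (adjusted p up to 0.0554 and 0.225). Leaving out 1 of the 4 arrays gave 17 to 21 rises and 1 to 4 falls.

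**Figure D2:**
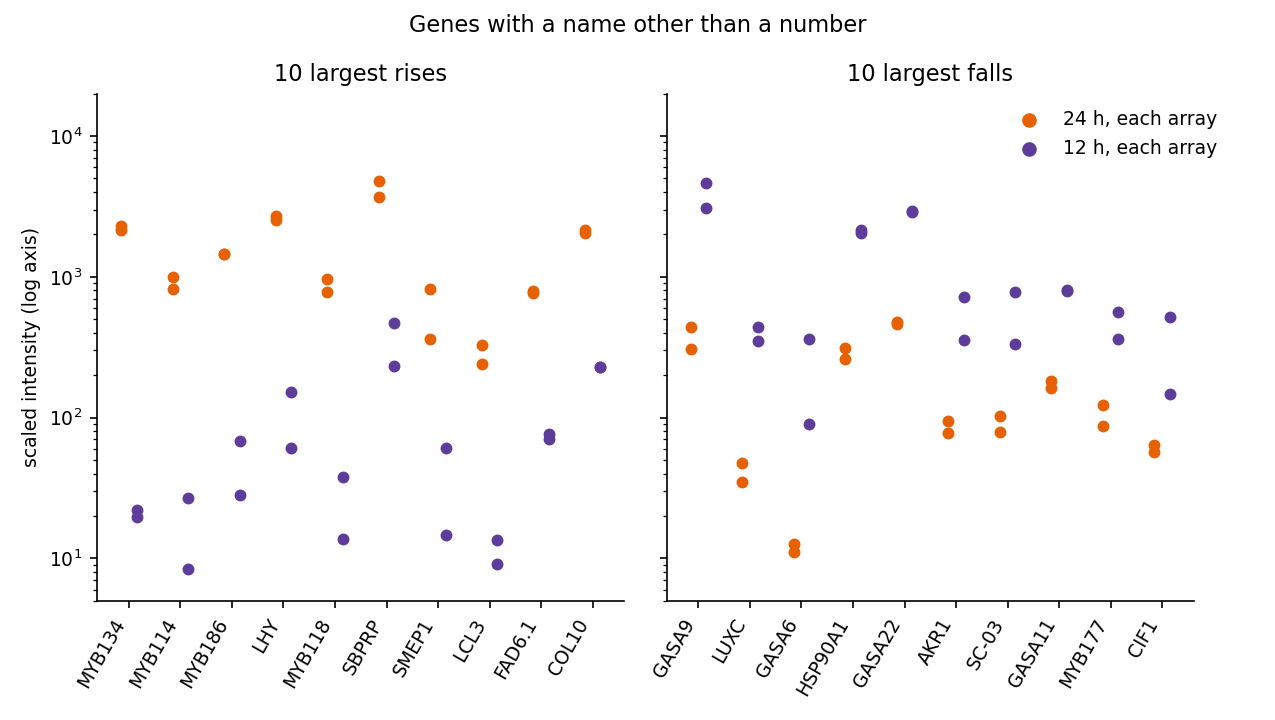
Scaled intensity (log axis) of each 24 h array (orange, left of each pair) and each 12 h array (purple) for the 10 largest rises and 10 largest falls among genes with a name. The times do not overlap in any gene shown, a condition of the choice. The 12 h arrays of SMEP1, GASA6 and CIF1 lie farthest from each other on the log axis, followed by those of MYB114, MYB118, LHY and MYB186.

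Of 13 genes of chlorophyll synthesis, thylakoid complexes and Rubisco activase, 6 rose at 24 h, 1 fell and 6 were not called, with a median change of 0.49. CHLH, a subunit of the magnesium chelatase that commits porphyrin to chlorophyll, stood at 3909 and 4117 at 24 h, against 1037 and 1074 at 12 h, a rise of 1.91 ± 0.12 (adjusted p = 6.79e-06). RCA14, a Rubisco activase, stood at 7425 and 7357 at 24 h, against 2914 and 3370 at 12 h, and rose by 1.23 ± 0.13. RCAALPHA rose by 1.05 ± 0.12, RCABETA by 1.10 ± 0.19, CAB3, a chlorophyll-binding antenna protein gene, by 0.79 ± 0.20, and HEMB, of porphyrin synthesis, by 0.49 ± 0.14. The activase genes and CHLH had their lowest means of the course at 12 h.

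GSA1, which encodes an early enzyme on the same porphyrin path, went down. It stood at 366 and 407 at 24 h, against 663 and 696 at 12 h, a fall of 0.79 ± 0.20. That call ended without any 1 of the 4 arrays (adjusted p up to 0.123), and 2 other probe sets of GSA1 were not called. The summed level of the 13 genes was 48910 and 46620 at 24 h, against 35550 and 32850 at 12 h. Leaving out 1 of the 4 arrays gave 4 or 5 rises and 0 falls.

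Some fatty acid desaturase genes rose and the others were not called. Of 9 genes, 3 rose and 0 fell, with a median change of 0.16. FAD6.1, a plastid desaturase, stood at 786 and 766 at 24 h, against 70.4 and 76.2 at 12 h, a rise of 3.15 ± 0.15 (adjusted p = 9.87e-07). FAD8.2, which makes trienoic fatty acids in the plastid, stood at 1832 and 1838 at 24 h, against 370 and 627 at 12 h, and rose by 1.89 ± 0.20 with 2 other probe sets rising too. FAD3C, of the endoplasmic reticulum, stood at 333 and 326 at 24 h, against 89.1 and 83.0 at 12 h, and rose by 1.76 ± 0.14, while its other probe set was not called. The remaining 6 ran from -0.58 (FAD7-2 and FAD2-2) to 0.47 (FAD3B) and were not called. Leaving out any 1 of the 4 arrays gave 3 rises, with 1 fall added without 12 h replicate 2.

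Genes of sugar transport, water channels and phosphate also rose where they were called, while the nitrogen genes held 1 rise and 1 fall. Of 9 sugar transporters 3 rose and 0 fell (median 0.50). SUT1, a sucrose transporter of phloem loading, stood at 708 and 534 at 24 h, against 228 and 112 at 12 h, a rise of 1.84 ± 0.30 (adjusted p = 0.00218) in which its 2 other probe sets joined. SWEET34, of the sugar exporter family, stood at 361 and 298 at 24 h, against 97.1 and 166 at 12 h, and rose by 1.26 ± 0.22. SWEET29 stood at 182 and 127 at 24 h, against 26.6 and 60.5 at 12 h, and rose by 1.56 ± 0.31, a call that ended without 12 h replicate 1 or 24 h replicate 1 (adjusted p up to 0.0692). SWEET34 (38.6) and SWEET29 (9.14) had their lowest means at 6 h and not at 12 h.

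Of 19 aquaporins, the water channels of membranes, 6 rose and 0 fell, with a median of 0.27. SIP1-6, a small basic aquaporin, stood at 681 and 589 at 24 h, against 74.1 and 156 at 12 h, a rise of 2.38 ± 0.28 (adjusted p = 0.000285) shared by its 2 other probe sets. PIP1-8 of the plasma membrane stood at 334 and 295 at 24 h, against 75.1 and 105 at 12 h, and rose by 1.65 ± 0.23. NIP2-2 stood at 102 and 98.7 at 24 h, against 21.8 and 29.1 at 12 h, and rose too (adjusted p = 8.51e-05). The others called were PIP2-13, PIP2-1 and PIP2-10, and 13 were not called, from -0.53 (PIP2-6) to 0.69 (PIP1-6).

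Of 11 nitrogen genes, 1 rose and 1 fell. The ammonium transporter gene AMT1.3 stood at 758 and 591 at 24 h, against 89.4 and 134 at 12 h, a rise of 2.45 ± 0.23 (adjusted p = 8.15e-05). GS1alpha, a cytosolic glutamine synthetase gene, fell by 1.16 ± 0.27, a call that ended without 12 h replicate 2 or either 24 h array (adjusted p up to 0.0941). NIR, the nitrite reductase gene, changed by -0.59 ± 0.21 and was not called (adjusted p = 0.0881). Of 17 phosphate genes 4 rose and 0 fell, with a median of -0.002. PHR, of the phosphate starvation response family, stood at 131 and 113 at 24 h, against 25.0 and 38.5 at 12 h, and rose by 1.55 ± 0.17. SPX3, a phosphate-sensing SPX domain gene, stood at 570 and 571 at 24 h, against 49.2 and 172 at 12 h, a rise of 2.40 ± 0.51. The SPX3 call ended without 12 h replicate 1 or either 24 h array (adjusted p up to 0.0703), and 1 to 4 phosphate genes rose when 1 array was left out.

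**Figure D3:**
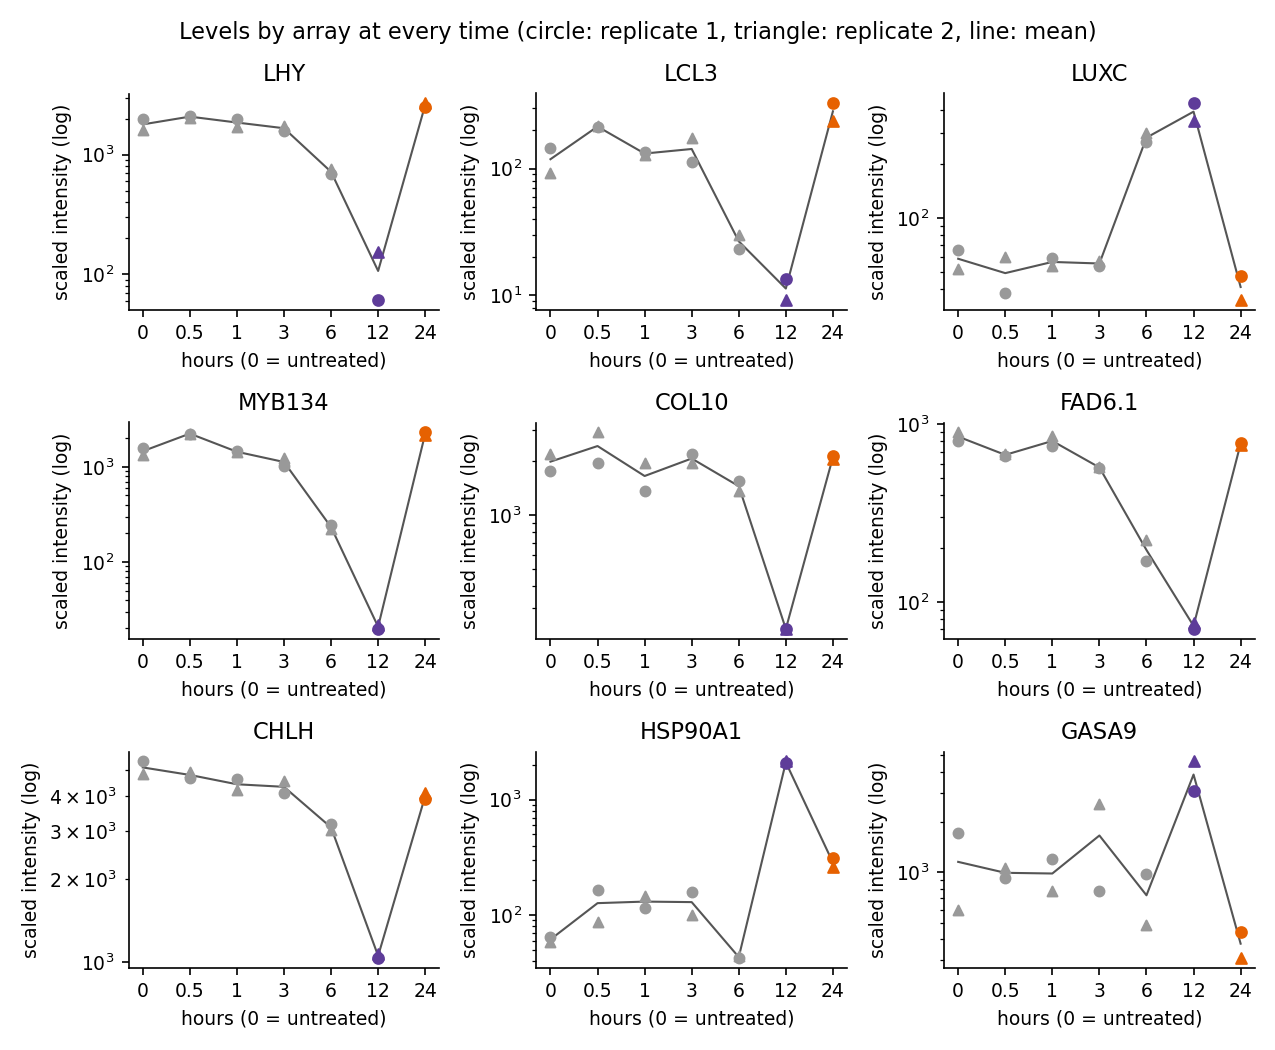
Scaled intensity (log axis) of 9 genes on each of the 14 arrays by hours in bicarbonate, 0 being untreated. Circles and triangles are replicates 1 and 2, the line joins means, and 12 h is purple and 24 h orange; LHY, LCL3, MYB134, COL10, FAD6.1 and CHLH are lowest at 12 h, and LUXC, HSP90A1 and GASA9 are highest there.

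Heat shock proteins are chaperones that hold and refold other proteins. Of 8 heat shock protein and BIP genes, 0 rose and 5 fell at 24 h, with a median change of -1.09, and those 5 had their highest means of the 7 times at 12 h. HSP90A1, a cytosolic chaperone, stood at 310 and 260 at 24 h, against 2058 and 2146 at 12 h, a fall of 2.82 ± 0.27 (adjusted p = 7.57e-05) shared by 2 other probe sets. HSP22.3, a small heat shock protein gene, stood at 93.6 and 85.6 at 24 h, against 365 and 315 at 12 h, and fell by 1.75 ± 0.29. HSP22.5 was not above background on either 24 h array and was at least 2.15-fold lower at 24 h.

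HSP90-1 fell by 1.03 ± 0.14, as did 4 of its 6 other probe sets, and HSP23.9 by 1.16 ± 0.31. At 24 h HSP90A1 still averaged 285, against 61.6 in untreated leaves, whereas HSP90-1 averaged 1522 at 24 h and 1537 untreated. BIP2 (0.27) and BIP4 (0.16), chaperones of the endoplasmic reticulum, and HSP17.5-E (0.00) were not called, although the other probe set of HSP17.5-E fell. Leaving out 1 of the 4 arrays gave 4 or 5 falls, and 2 rises without 12 h replicate 2. Of 10 heat shock factors 1 rose, HSF-01 (0.92 ± 0.26), and 1 fell, HSF-14 (-0.62 ± 0.19). The HSF-14 call ended without any 1 of the 4 arrays and the HSF-01 call without 12 h replicate 1 or either 24 h array (adjusted p up to 0.2 and 0.191).

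GASA genes encode small cysteine-rich peptides that respond to gibberellin, and 1 of them, GASA9, had the largest fall among genes with a name. The list of 23 gibberellin and growth genes held 5 rises and 7 falls, with a median of -0.12, and all 7 falls were GASA genes. GASA9 stood at 443 and 309 at 24 h, against 3078 and 4612 at 12 h, a fall of 3.29 ± 0.50 (adjusted p = 0.00162). GASA22 stood at 463 and 475 at 24 h, against 2903 and 2911 at 12 h, and fell by 2.59 ± 0.15. GASA11 stood at 162 and 183 at 24 h, against 792 and 800 at 12 h, and fell by 2.11 ± 0.27.

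GASA6 was not above background on either 24 h array, at 12.7 and 11.2, against 90.3 and 359 at 12 h, and was at least 8.89-fold lower at 24 h (adjusted p = 0.00237). Its 12 h arrays were far apart, and the change was -3.75 without 12 h replicate 1 and -1.93 without 12 h replicate 2. Its 24 h mean of 11.9 was below its mean at every other time, 112 to 334. GASA24 went the other way, with 1051 and 1219 at 24 h, against 288 and 342 at 12 h, a rise of 1.80 ± 0.19, and its 24 h mean of 1135 was its highest of the course. GA2OX8, of the gibberellin 2-oxidases that inactivate the hormone, rose by 1.66 ± 0.44. GAI2, a DELLA-type growth repressor gene, rose by 0.64 ± 0.14. The GA2OX8 call ended without any 1 of the 4 arrays (adjusted p up to 0.123) and the GAI2 call without 24 h replicate 2 (adjusted p = 0.0787). The other 2 rises were GA20OX3 and GA2OX6, both dim: GA20OX3 was above background on 1 array of 24 h, and GA2OX6 on no array of either time. Leaving out 1 array gave 2 or 3 rises and 5 to 7 falls.

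Among 5 genes for SnRK2 kinases or abscisic acid synthesis and response, 1 rose and 2 fell. SPK-2, an SnRK2-type kinase gene, stood at 31.0 and 31.2 at 24 h, against 145 and 133 at 12 h, a fall of 1.72 ± 0.22 (adjusted p = 0.000533). SPK-1 stood at 32.3 and 18.0 at 24 h, against 111 and 94.4 at 12 h, and fell by 1.55 ± 0.34, a call that ended without 12 h replicate 1 or 24 h replicate 2 (adjusted p up to 0.0936). ZEP, the zeaxanthin epoxidase gene of xanthophyll and abscisic acid synthesis, stood at 1437 and 1264 at 24 h, against 677 and 420 at 12 h, and rose by 1.31 ± 0.22.

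Of 24 glutathione transferase genes, whose enzymes couple toxic compounds to glutathione, 2 rose and 8 fell, with a median of -0.23. GSTU28 stood at 256 and 282 at 24 h, against 719 and 687 at 12 h, a fall of 1.34 ± 0.13 (adjusted p = 0.000113). GSTU37 fell by 1.20 ± 0.19, and GSTU27, not above background at 24 h, was at least 4.24-fold lower. The 2 rises were GSTU1 (0.69 ± 0.18) and GSTIR (0.64 ± 0.17), and neither call held, whichever of the 4 arrays was left out. Their changes in those fits ran from 0.65 to 0.74 and from 0.58 to 0.71. Of 12 antioxidant and alternative oxidase genes, 1 rose and 2 fell. The iron superoxide dismutase genes SODB2 (-1.20 ± 0.22) and SODB (-0.80 ± 0.18) fell, and SOD1 rose by 0.97 ± 0.27. All 3 calls, and with them every fall of the list, were lost when 24 h replicate 1 was left out, SODB also when 12 h replicate 2 was, and SOD1 also when 12 h replicate 1 or 24 h replicate 2 was. The highest adjusted p was 0.0511 for SODB2, 0.112 for SODB and 0.222 for SOD1.

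Phenylpropanoid genes lead to lignin and flavonoids. Of 31 such genes, 9 rose, 1 fell and 21 were not called, with a median change of 0.51, beside 0.07 over all 1003 named genes. C4H, the cinnamate hydroxylase near the start of the path, stood at 672 and 787 at 24 h, against 380 and 292 at 12 h, a rise of 1.09 ± 0.16 (adjusted p = 0.00148). The coumarate-CoA ligase gene 4CL1 stood at 308 and 342 at 24 h, against 99.1 and 104 at 12 h, and rose by 1.54 ± 0.22. Its relative 4CL2 rose by 1.28 ± 0.18, and F3H, of flavonoid synthesis, by 1.19 ± 0.24. UGT708D1, a flavonoid glucosyltransferase gene, fell by 0.51 ± 0.13, a call that ended without any 1 of the 4 arrays (adjusted p up to 0.118). Leaving out 1 array gave 4 to 7 rises and 0 falls. Of 22 cytochrome P450 genes 2 rose and 0 fell. They were CYP98A2, of the same path toward lignin (1.62 ± 0.21, with 4 of its 5 other probe sets), and CYP94D24 (1.01 ± 0.18).

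**Figure D4:**
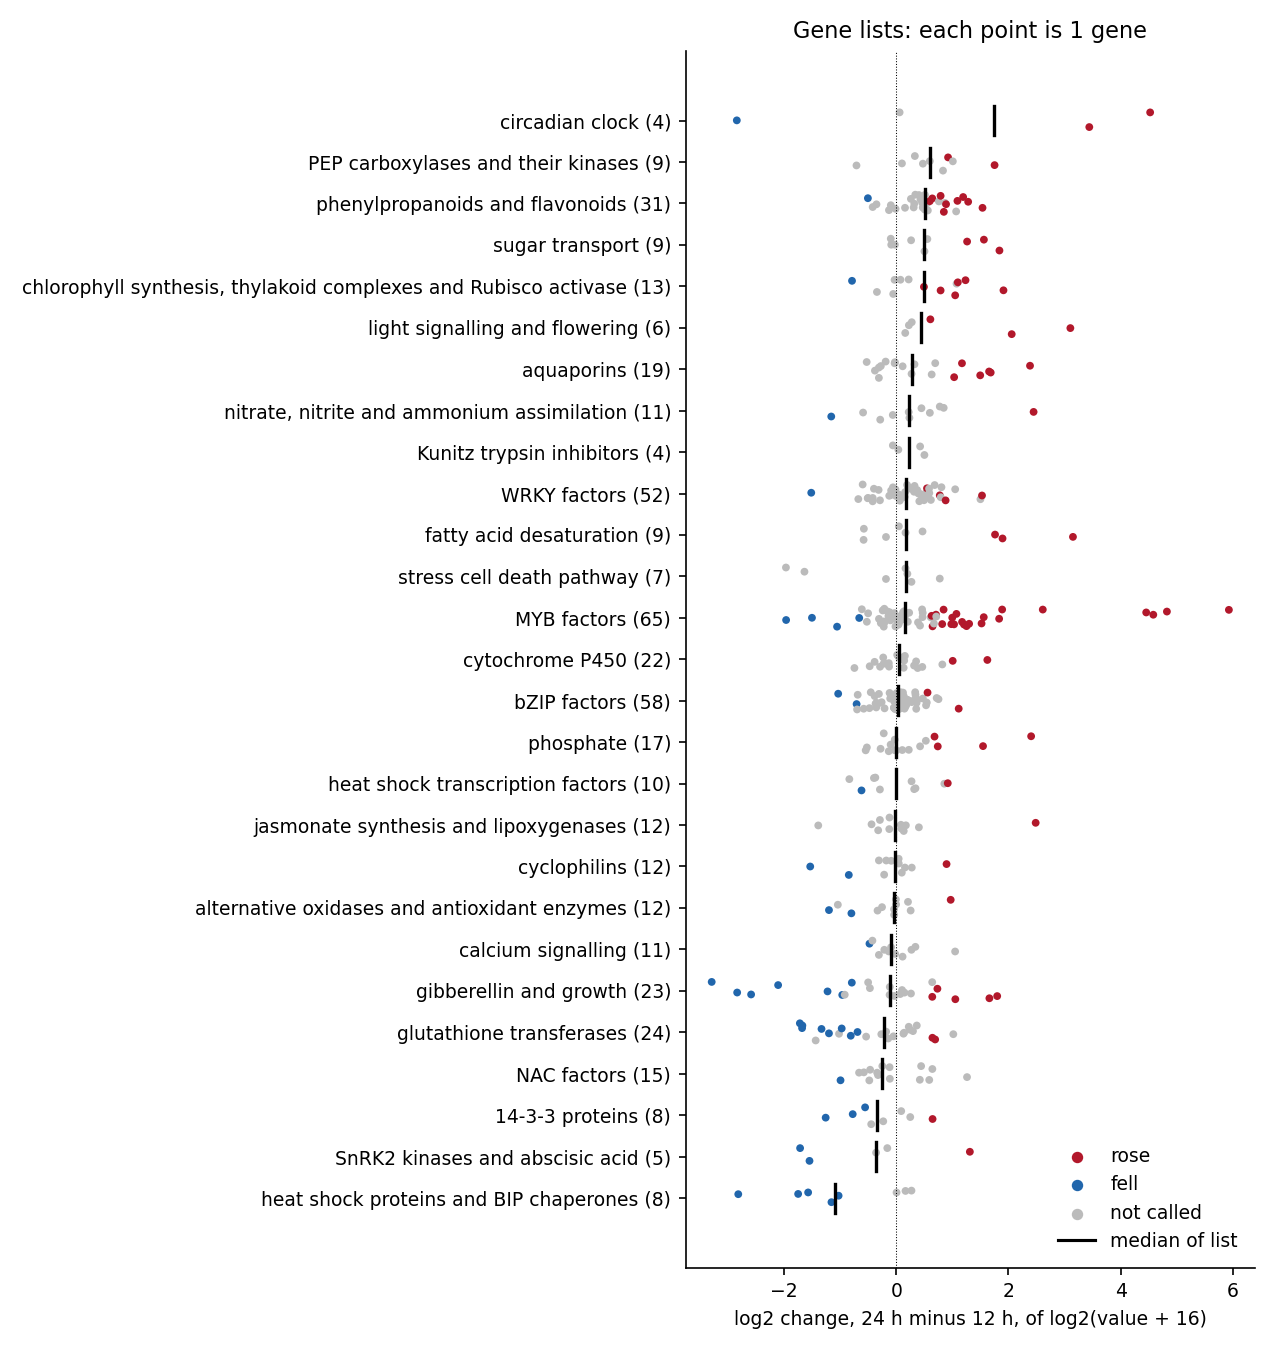
Change of each gene, 24 h minus 12 h, on the log2(level + 16) scale (horizontal) by gene list, with the number of genes in parentheses. Red points rose, blue fell and grey were not called, and bars are list medians, highest for the clock and lowest, at -1.09, for heat shock proteins and BIP chaperones.

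Other transcription factor families held few calls. Of 52 WRKY genes 4 rose and 1 fell, of 58 bZIP genes 2 rose and 2 fell, and of 15 NAC genes 0 rose and 1 fell. WRKY9 stood at 38.2 and 43.1 at 24 h, against 216 and 97.2 at 12 h, a fall of 1.52 ± 0.29 (adjusted p = 0.00565), although 1 of its 2 other probe sets was not called. WRKY28 rose by 0.77 ± 0.14, although its other probe set was not called. WRKY57 rose by 1.53 ± 0.37 and WRKY2 by 0.88 ± 0.23, and these calls ended without 12 h replicate 1 or 24 h replicate 2, and WRKY2 also without 24 h replicate 1 (adjusted p up to 0.135 and 0.157). NAC14 stood at 440 and 461 at 24 h, against 867 and 963 at 12 h, and fell by 1.00 ± 0.14 with 2 other probe sets. BZIP42 was not above background at 12 h and at least 1.41-fold higher at 24 h. The remaining bZIP calls, of BZIP10, BZIP21 and BZIP87, each ended without 12 h replicate 1 and without 24 h replicate 2 (adjusted p up to 0.0643, 0.184 and 0.116).

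The short lists that follow are to be read beside the 15.5% of all named genes that rose and the 8.47% that fell. Of 12 jasmonate and lipoxygenase genes only LOX10 was called. It stood at 186 and 248 at 24 h, against 32.2 and 19.3 at 12 h, a rise of 2.48 ± 0.42 (adjusted p = 0.00293), and its 24 h mean of 217 was its highest of the 7 times. Of 9 phosphoenolpyruvate carboxylase and kinase genes 2 rose, the kinases PPCK3 (1.75 ± 0.42) and PPCK1 (0.92 ± 0.26), and both calls ended without 12 h replicate 1 or either 24 h array (adjusted p up to 0.123 and 0.23). Of 8 14-3-3 genes, whose proteins bind phosphorylated partners, 1 rose and 3 fell, led by GF14B, which stood at 433 and 426 at 24 h, against 1077 and 1026 at 12 h (-1.26 ± 0.15). Leaving out 1 array gave 0 or 1 rises and 1 to 4 falls of 14-3-3 genes: GF14A was lost in 3 of the 4 runs, and SGF14f and SGF14G in 1 each. Of 12 cyclophilins 1 rose and 2 fell, and CYP26 stood at 74.3 and 69.4 at 24 h, against 237 and 240 at 12 h (-1.54 ± 0.13). The cyclophilin that rose, CYP2, was no longer called without 12 h replicate 1 or either 24 h array (adjusted p up to 0.138). Of 11 calcium genes 1 fell, the protein kinase gene CDPK (-0.48 ± 0.13), a call that ended without 12 h replicate 1 or either 24 h array (adjusted p up to 0.159). By limma 0 of 7 stress cell death genes and 0 of 4 Kunitz inhibitor genes were called, and 3 and 2 of them had an unadjusted p under 0.05. Without 12 h replicate 2, 2 stress cell death genes rose and 1 fell, and the fits of the 4 arrays alone, of all 14 arrays and without dim probe sets each gave 1 fall, the first of these also 1 rise. ERD15 stood at 764 and 659 at 24 h, against 3448 and 2316 at 12 h (-1.97 ± 0.61, adjusted p = 0.0527), and KTI-3 changed by 0.50 ± 0.20 (adjusted p = 0.119).

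Several named genes outside the lists were among the largest changes. SBPRP, a proline-rich protein gene, stood at 3672 and 4755 at 24 h, against 473 and 233 at 12 h, a rise of 3.59 ± 0.27 (adjusted p = 1.76e-05). SMEP1, a metalloendoproteinase gene, stood at 360 and 817 at 24 h, against 14.6 and 60.6 at 12 h, a rise of 3.53 ± 1.04 whose call ended without any 1 of the 4 arrays (adjusted p up to 0.217). AKR1, an aldo-keto reductase gene, stood at 94.0 and 78.3 at 24 h, against 714 and 354 at 12 h, and fell by 2.35 ± 0.36. SC-03 stood at 78.6 and 102 at 24 h, against 332 and 779 at 12 h, and fell by 2.31 ± 0.37 (-2.91 without 12 h replicate 1 and -1.72 without 12 h replicate 2). Both AKR1 and SC-03 had their lowest means of the 7 times at 24 h. CIF1 fell by 1.95 ± 0.58, and that call ended without 12 h replicate 1 or either 24 h array (adjusted p up to 0.28).

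Genes known by number held large changes both ways. LOC100779717 stood at 1211 and 1198 at 24 h, against 4.12 and 4.63 at 12 h, where it was not above background, and was at least 73.2-fold higher (adjusted p = 2.92e-07). LOC100803175 stood at 6.02 and 10.3 at 24 h, where it was not above background, against 1945 and 820 at 12 h, and was at least 62.3-fold lower (adjusted p = 4.11e-06). Its 24 h mean of 8.17 was also below its untreated mean of 99.3.

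The other large rises by number were LOC100795117 (4.15 ± 0.21), LOC100797466 (4.01 ± 0.26) and LOC100500586 (3.94 ± 0.18), with LOC100802922 at least 17.4-fold higher. The other large falls were LOC100788166 (-4.92 ± 0.26), LOC100799842 (-4.04 ± 0.75), LOC100500642 (-3.47 ± 0.22), LOC100500201 (-3.37 ± 0.57), LOC547877 (-3.10 ± 0.51), LOC100792629 (-3.09 ± 0.43) and LOC100775728 (-3.02 ± 0.26), with LOC100783357 at least 26.8-fold lower. Of these, LOC100799842 had 2 other probe sets that were not called. Leaving out 1 of the 12 h arrays moved LOC100799842 between -4.85 and -3.24, LOC100500201 between -4.48 and -2.27, LOC547877 between -3.80 and -2.40 and LOC100803175 between -6.35 and -5.12, the smaller fall each time without replicate 1. LOC100788166 and LOC100783357 averaged 1284 and 862 at 6 h, near or above their 12 h means of 1202 and 547. Among the 28916 probe sets without a single symbol, 2398 rose and 2201 fell. The steepest rise among them was at least 66.8-fold and the steepest fall had a change of -4.90 ± 0.32.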

How the data were processed

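Per the labels' protocols, leaf RNA was isolated with TRIzol and biotin-labelled cRNA went onto Affymetrix arrays. The authors deposited 1 linear intensity per probe set and array, from 0.92 to 12812.33; the sources used here do not state how they normalized or summarised the probes. Each array was scaled to a soybean median of 56.4, and log2(value + 16) was fitted with limma 3.58.1 in R 4.3.3 (lmFit, eBayes). Means of 6 groups were fitted to the 12 treated arrays, with 6 residual and 4.16 prior degrees of freedom; no 0 h array entered. The contrast was 24 h minus 12 h, two-sided, with Benjamini-Hochberg adjustment over 37593 probe sets, and the number of arrays limits the precision (median SE 0.18). On simulated data with 200 changed probe sets among 37593, the fit recovered 0% of changes of log2 0.5 and 64% of 1. It recovered 96% of 2 and 100% of 3, with 8 false calls. The data held 6363 calls, and the Benjamini-Hochberg cut-off loosens as more probe sets change. The simulated shares and false calls therefore do not carry over to the data, where CDPK was called at a change of -0.48.

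Genes were named from GEO's platform annotation, which can be old: 8677 soybean probe sets had 1 symbol, 370 several and 28546 none, and 0 identifiers matched the Glycine soja gene table. A gene is represented by its probe set with the highest mean over the treated arrays. Other probe sets of a gene can disagree where the text does not say so. Those of MYB11, GF14A, SODB, SGF14f, HSF-01, HSF-14, GA2OX8, GAI2 and BZIP10 were not called. Genes named were the 10 largest rises and falls past the test, above background on both arrays of a time and with no overlap, the same among genes without a LOC number, the clock genes, and up to 3 genes per list and direction, or the lowest p. Other list members named give the ends of a range, complete a count or were chosen after their values were seen. "At least N-fold" sets the brighter time's mean against, per array, whichever is higher of the background and the dim signal itself. The lists, members and comparison were chosen with earlier results of these data known. Replicate numbers do not mark shared plants in the labels.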

Additional observations from a re-analysis of the deposited data

Results flagged for a closer look

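The probe sets for Phytophthora sojae and Heterodera glycines, 23350 in all, served only as background. Under the same contrast, fitted and adjusted over all probe sets of the array, 243 of them were higher at 24 h than at 12 h and 41 lower. Together these were 1.22% of the 23350, while 5271 of 37593 soybean probe sets were called in that fit. Of the 227 control probe sets, 12 were higher and 2 lower in that fit. Of the 243, 28 were above background on both 24 h arrays and above both 0 h arrays. Background is a percentile of these same 23350 probe sets, so some of them exceed it on every array by construction. Whether the 28 are more than this rule alone would give was not tested. The median level of all 23350 was 7.60 and 7.29 on the 24 h arrays and 5.98 and 6.87 on the 12 h arrays. The source of the signal of the 28 was not tested.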

How the results depend on the processing

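Without 1 of the 4 arrays the number of probe sets called was 3261 to 5265 (6363 with all), from 1914 to 2821 rises and 1323 to 2444 falls. At an adjusted p under 0.01, 3040 were called, 1842 higher and 1198 lower, and at 2-fold or more 2528, 1622 higher and 906 lower. The 4 arrays of 12 and 24 h alone gave 1898 falls. Rises were 52.8% of calls, but 49.2% with quantile normalization (3175 rises and 3274 falls), so which direction was more numerous depends on the scaling. The count was 5693 with all 14 arrays and 5496 without the 0.5 h arrays, a setting added after seeing the data. With the replicate number as a block (replicate block) it was 5869. Replicate differences at 24 h and 12 h correlated at 0.07 across probe sets, so the numbers gave no sign of pairing between those times. Between other treated times the correlations ran from -0.219 (0.5 h and 6 h) to 0.225 (3 h and 12 h). Of 99 calls of named genes, 66 held without each of the 4 arrays. No call changed sign under any setting; ZTL1, not called, ran from -0.15 without 12 h replicate 2 to 0.26 without 12 h replicate 1. The cause of these differences was not tested. Scaling moved the median change of all probe sets by less than the SE, to -0.02 without it.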
